A study of Mus musculus with 23 samples.

Results

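The genes described here encode the machinery that makes the lysosome an acidic compartment of degradation: the subunits of the vacuolar proton pump (V-ATPase) and the hydrolases, membrane proteins and transporters that work behind it. Members were the probe sets annotated to a single gene whose symbol starts with Atp6v, together with the probe sets of 27 listed lysosomal genes. This gave 47 genes, 20 of the pump and 27 of the list, among 18192 genes with such a probe set on the MOE430A and MOE430B arrays. They were measured by 106 probe sets, 85 on MOE430A (37 of the pump and 48 of the list) and 21 on MOE430B (7 and 14). Of these, 2 probe sets were on both arrays and are counted on each.

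CA3 tissue came from UBB+1 tg mice and from non-transgenic wild-type littermates, all on a C57BL/6J background and 18 months old. UBB+1 is a frameshift form of ubiquitin B that accumulates in Alzheimer's disease and inhibits the proteasome. It was expressed from a heterozygous transgene of 1 mouse line under the CaMK2α promoter, which is active in forebrain excitatory neurons. Arrays of 6 UBB+1 tg mice were set against those of 5 wild-type mice on MOE430A and 6 wild-type mice on MOE430B. The sex of these animals is not given in the sources used here. Levels are log2 intensities normalized by RMA (robust multi-array average), and every difference is the log2 level in UBB+1 tg minus that in wild type. In tissue of mixed cells, fewer cells of a type and less RNA per cell cannot be told apart.

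The V-ATPase is a rotary motor. Its cytosolic V1 sector hydrolyses ATP and turns a central shaft, and its membrane V0 sector holds the rotating ring through which protons enter the lumen. Low pH activates the cathepsins, glycosidases and lipid hydrolases, which are made as precursors and mature inside the lysosome. Neurons rely on this route to clear proteins and membranes, several of the listed genes cause neuronal lipofuscinoses or storage diseases when mutated, and the same pump also fills synaptic vesicles. Many lysosomal genes carry an E-box near the start site that is bound by the transcription factor TFEB and its relatives.

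The E-box was more frequent in promoters of the members than over all genes, though most members lacked it, and the choice of genes did not use it. The palindrome CACGTG, identical on both strands, was looked up in promoters of 300 bases (RefSeq, GRCm38.p6), from 250 before to 50 after the start. Of the members, 14 pump genes and 23 listed genes had such a promoter in the table. CACGTG occurred in 4 of the 14 pump genes (28.6%) and in 11 of the 23 listed genes (47.8%), against 8.09% of 27025 genes in all. A gene with several promoters was counted if any of them held a match. By promoter the shares were 26.7% of 15 for the pump and 40.7% of 27 for the list, against 7.15% of 32851. The longer TCACGTGA, which contains CACGTG, occurred in 3 of the 14 pump genes and 5 of the 23 listed genes, against 1.12% of all genes. The median GC content was 57.7% in pump promoters and 56.3% in those of the list, against 52.7% over all promoters, and its part in these shares was not tested. The stretches below show these matches in 6 genes whose values are described later, each written 5′ to 3′ on the gene's strand with every CACGTG in capitals. They come from chr8:13159080-13159171 (Lamp1, plus strand), chr2:164833741-164833803 (Ctsa, plus strand), chrX:134601174-134601252 (Gla, minus strand), chr7:126583332-126583405 (Cln3, minus strand), chr4:117887322-117887385 (Atp6v0b, minus strand) and chr16:44139365-44139410 (Atp6v1a, minus strand).
Lamp1: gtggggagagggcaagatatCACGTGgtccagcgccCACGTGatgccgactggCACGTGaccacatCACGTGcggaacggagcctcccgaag
Ctsa: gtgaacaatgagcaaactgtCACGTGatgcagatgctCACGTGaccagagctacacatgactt
Gla: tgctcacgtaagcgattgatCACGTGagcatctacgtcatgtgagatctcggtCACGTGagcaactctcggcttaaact
Cln3: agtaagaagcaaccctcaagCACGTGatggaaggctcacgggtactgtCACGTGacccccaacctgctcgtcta
Atp6v0b: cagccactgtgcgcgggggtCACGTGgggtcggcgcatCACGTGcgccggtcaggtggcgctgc
Atp6v1a: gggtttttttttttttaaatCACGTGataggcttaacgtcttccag
Lamp1 held 4 matches within this stretch, Ctsa, Gla, Cln3 and Atp6v0b held 2, and Atp6v1a held 1. Ctsa and Cln3 each had a further promoter without a match. A match describes the letters only, and binding was not measured in these mice.

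The arrays fell into 3 sets that crossed the genotypes. Clustering on all probe sets gave the same sets of mice on both kinds of array, and they followed the 3'-5' difference, the log2 signal of the 3' minus the 5' control probe sets for Gapdh and β-actin, which grows as amplified RNA gets shorter. On MOE430A this difference was 6.05 to 6.10 in the high set (1 UBB+1 tg and 1 wild-type mouse), 4.44 to 4.62 in the middle set (4 UBB+1 tg and 2 wild-type mice) and 2.65 to 3.43 in the low set (1 UBB+1 tg and 2 wild-type mice). It averaged 4.61 ± 0.83 in UBB+1 tg (SD, n = 6) and 4.10 ± 1.45 in wild type (SD, n = 5). Summed levels of microglial markers, of which 10 of 11 listed genes were measured, ranged over 10.95 to 11.50 in UBB+1 tg and 10.76 to 11.78 in wild type. Summed levels of oligodendrocyte markers (6 of 7) ranged over 12.89 to 13.44 in UBB+1 tg and 12.78 to 13.09 in wild type, a mean difference of 0.18. All 6 measured oligodendrocyte markers were above wild type, with Mal at 0.58, Mobp at 0.33 and Mag, the smallest, at 0.00. The CA3 markers (4 of 8 measured) ranged over 11.03 to 12.35 in UBB+1 tg and 10.88 to 12.09 in wild type. Neuronal markers (6 of 6) ranged over 13.45 to 14.05 in UBB+1 tg and 12.99 to 13.84 in wild type. Their mean difference of 0.32 was the largest of the marker lists on MOE430A. The lowest wild-type values, 12.99 and 13.26, came from mice of the low array set. Of the neuronal markers, 5 of 6 were above wild type, among them Stmn2 at 0.40, Syt1 at 0.39 and Snap25 at 0.37. Rbfox3 was below, at -0.16. On MOE430B 2 of 4 were above and 2 below, with Syt1 at 0.31 and Snap25 at -0.16. No marker of these cell types passed an unadjusted p of 0.05 from limma.

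No member differed between the genotypes at the study's false discovery rate of 10% in limma, and none had separate values in UBB+1 tg and wild type. The test was passed by 0 of 85 probe sets on MOE430A and 0 of 21 on MOE430B, beside 0% and 0% of all probe sets. The lowest adjusted p of a member was 0.984 on MOE430A and 1.00 on MOE430B. Values of UBB+1 tg and wild type overlapped for each member probe set. They were separate for only 0.234% of all probe sets on MOE430A and 0.142% on MOE430B, so that this does not set the members apart. At an unadjusted p of 0.05 from limma, 4 of 85 member probe sets were higher in UBB+1 tg and 1 was lower on MOE430A, beside 1.91% and 1.57% of all probe sets of that array. These were Ctsb, Scarb2, Atp6v1a and Atp6v1d on the higher side and Neu1 on the lower side.

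With each gene represented by its brightest probe set on MOE430A, pump and list both centred on 0 in the fit of genotype alone. Of 19 pump genes, 10 were above and 9 below wild type with a median log2 fold change of 0.03, and of 27 listed genes, 12 were above and 15 below with a median of -0.02. Over all 12392 genes the median was 0.01 and 52.4% were above wild type. Fitted with a block for the array set, which compares the genotypes inside each set (the array-set block), the median was 0.06 for the pump and -0.08 for the list, and adjusted for the 3'-5' difference it was 0.07 and 0.01. Of the listed genes, 9 were above and 18 below under the block, and 16 above and 11 below with that adjustment. Of the pump genes, 12 were above and 7 below in either fit. Over all genes, 53.1% were above under the block and 51.9% with the adjustment, with a median of 0.01 in each. The plot of fold changes by gene shows the members behind these medians.

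**Figure D1:**
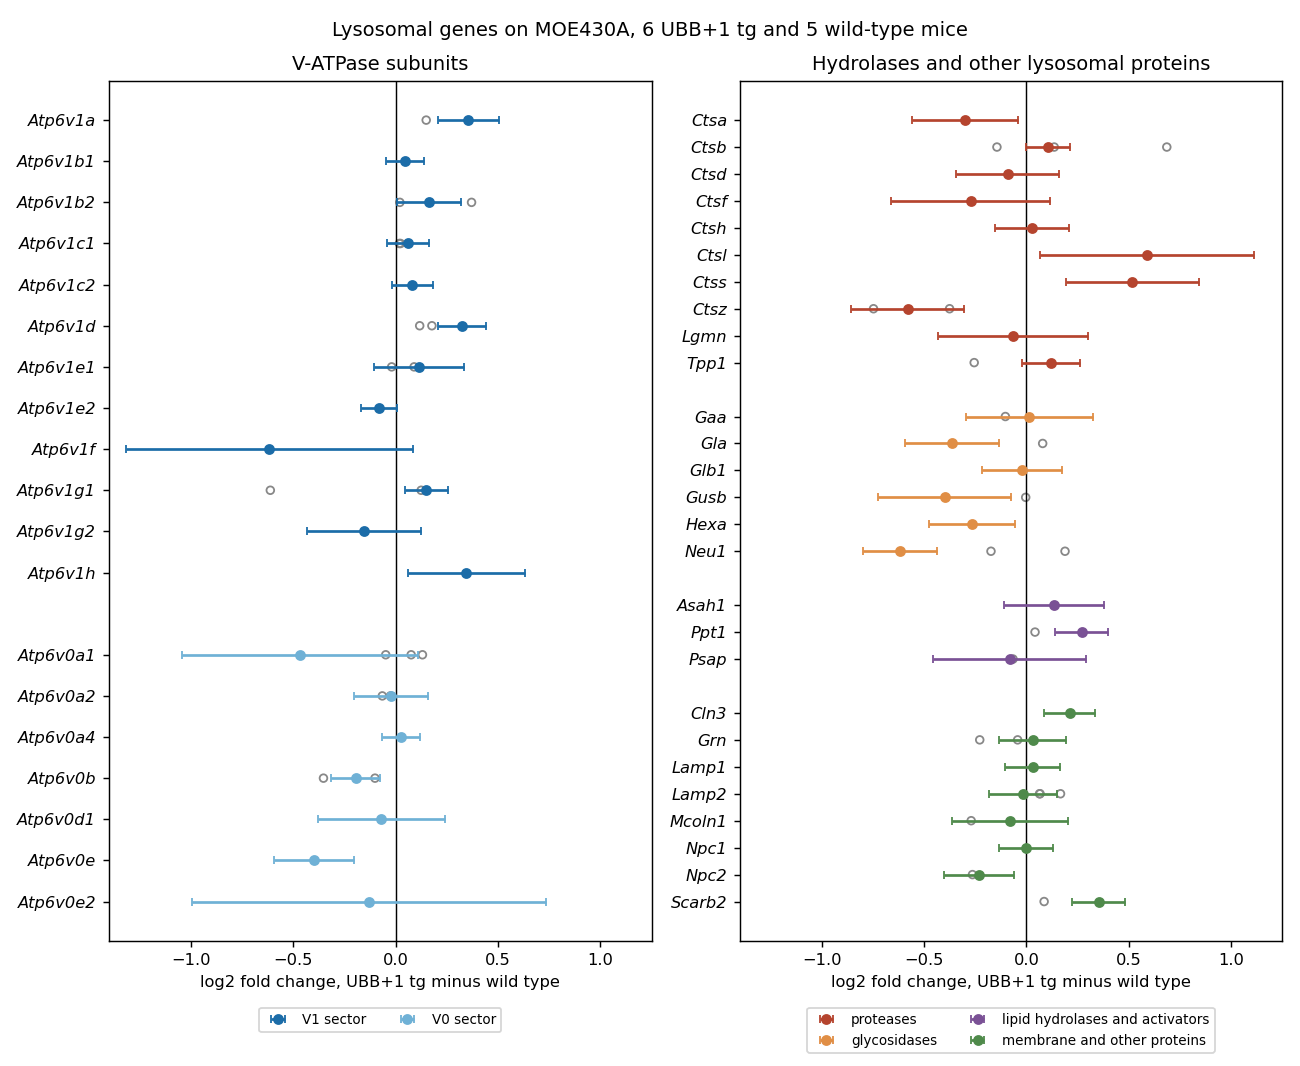
Each member gene on MOE430A by role, with its log2 difference between UBB+1 tg and wild type on the horizontal axis. Filled points with bars are the brightest probe set with its standard error, open circles the gene's other probe sets; most bars reach 0, and V1 genes lie mainly right and V0 genes mainly left of it.

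Subunits of the V1 sector lay above wild type more often than not, and those of the V0 sector below. Of 12 V1 genes, 9 were higher in UBB+1 tg with a median log2 fold change of 0.10, and of 7 V0 genes, 1 was higher with a median of -0.13. Under the array-set block the medians were 0.10 and -0.13, for 10 of 12 and 2 of 7 genes. Adjusted for the 3'-5' difference they were 0.10 and -0.07, for 9 of 12 and 3 of 7. Over all probe sets of MOE430A, 18 of 23 of V1 were above wild type with a median of 0.09 and 3 of 14 of V0 with a median of -0.07. The neuronal markers given above were also above wild type for 5 of 6 genes on MOE430A, but for 2 of 4 on MOE430B. Their part in these values was not tested. No set test was run, and none of these genes passed the false discovery rate in limma.

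Atp6v1a encodes the catalytic A subunit that hydrolyses ATP. Its probe set 1422508_at was at 11.88 at the lowest, 12.12 at the median and 12.22 at the highest in UBB+1 tg, and at 11.31, 11.47, 11.72, 11.88 and 12.22 in the 5 wild-type mice. Both of the lowest values came from wild-type mice of the low array set, and the highest wild-type value, from the high set, reached the highest in UBB+1 tg. The log2 fold change of Atp6v1a was 0.36 (SE 0.15, adjusted p = 0.984 in limma), all 6 UBB+1 tg mice exceeding the wild-type mean, and it was 0.28 under the array-set block. The second Atp6v1a probe set, 1450634_at, gave 0.15 (SE 0.48) without and -0.26 (SE 0.16) with that block.

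Atp6v1d, a subunit of the rotating shaft, was at 12.00, 12.16 and 12.32 at the lowest, median and highest in UBB+1 tg on probe set 1416951_a_at, and at 11.55, 11.59, 11.98, 12.06 and 12.10 in wild type. The upper pair of wild-type values lay inside the UBB+1 tg range, and the lowest pair again belonged to the low array set. Its log2 fold change was 0.33 (SE 0.12, adjusted p = 0.984 in limma) and 0.25 under the array-set block. The other Atp6v1d probe sets, at 0.18 (SE 0.11) and 0.12 (SE 0.11), pointed the same way with smaller values.

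Atp6v1b2, the B subunit of brain and most tissues, had a log2 fold change of 0.16 (SE 0.16) on its brightest probe set, and 5 of 6 UBB+1 tg mice exceeded the wild-type mean, while its probe set 1419883_s_at was at 0.37 (SE 0.55). Atp6v1b1, the B subunit of kidney and inner ear, lay under the 25th percentile of all probe set means, called dim from here on, and was at 0.05 (SE 0.09). Atp6v1c1, which clamps the sector to its stalk, was at 0.06 (SE 0.10), and the epithelial Atp6v1c2 was at 0.08 (SE 0.10). The stalk subunits Atp6v1e1 and Atp6v1g1 were at 0.11 (SE 0.22) and 0.15 (SE 0.10). For Atp6v1g1, however, probe set 1423255_at lay on the other side of wild type, at -0.61 (SE 0.44) over all mice and -0.19 under the array-set block. Atp6v1h, which regulates the coupling of ATP hydrolysis to the motor, was at 0.35 (SE 0.29) with 4 of 6 UBB+1 tg mice above the wild-type mean, and at 0.11 (SE 0.17) under the array-set block.

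The 3 V1 genes below wild type were Atp6v1f, Atp6v1g2 and Atp6v1e2. Atp6v1f, which completes the shaft with Atp6v1d, was at 8.71, 9.39 and 11.60 at the lowest, median and highest in UBB+1 tg, and at 8.64, 8.87, 10.88, 11.54 and 11.76 in wild type. The values split by array set and not by genotype: the 6 mice of the middle set, of both genotypes, averaged 8.99, those of the high set 10.61 and those of the low set 11.64. The log2 fold change of Atp6v1f was thus -0.62 (SE 0.70) over all mice and 0.06 (SE 0.21) under the array-set block. The neuronal stalk isoform Atp6v1g2 was at -0.15 (SE 0.28) over all mice and 0.08 (SE 0.09) under that block, and Atp6v1e2, the isoform of the testis, was at -0.08 (SE 0.09).

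In the V0 sector, Atp6v0e, a small membrane subunit, was at 7.90, 8.38 and 8.91 at the lowest, median and highest in UBB+1 tg, and at 8.29, 8.67, 8.91, 8.92 and 9.05 in wild type. The ranges overlapped over most of their length, and 1 of 6 UBB+1 tg mice exceeded the wild-type mean. This gave a log2 fold change of -0.40 (SE 0.19, adjusted p = 0.984 in limma) and -0.26 (SE 0.13) under the array-set block. Atp6v0b, part of the proton-carrying ring, was at 11.86, 12.07 and 12.23 in UBB+1 tg, and at 11.93, 12.09, 12.24, 12.48 and 12.51 in wild type. Each of the 6 UBB+1 tg mice was below the wild-type mean of Atp6v0b, and the lowest of them lay under the wild-type range, with a log2 fold change of -0.20 (SE 0.12) and -0.13 under the array-set block. The other Atp6v0b probe sets gave -0.35 (SE 0.36) and -0.10 (SE 0.13).

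Atp6v0a1, the membrane subunit of the proton channel that prevails in neurons and on synaptic vesicles, had a wide spread on its brightest probe set 1417632_at. It was at 8.82, 9.44 and 11.23 in UBB+1 tg and at 8.93, 9.30, 10.88, 11.08 and 11.14 in wild type. Mice of the middle array set averaged 9.14 and those of the high and low sets 11.05 and 11.07, so that the log2 fold change of Atp6v0a1 was -0.47 (SE 0.58) over all mice and 0.05 (SE 0.17) under the array-set block. Its other probe sets were at 0.13, 0.08 and -0.05. Atp6v0a2, the isoform of the Golgi and endosomes, was at -0.02 (SE 0.18), and Atp6v0a4, the kidney isoform, was dim and at 0.03 (SE 0.09). Atp6v0d1, which joins the ring to the shaft, was at -0.07 (SE 0.31).

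Atp6v0e2, an e subunit expressed in brain, had the widest range over the mice of any member probe set on MOE430A. It was at 8.19 in 1 UBB+1 tg mouse and 9.69 in 1 wild-type mouse, the 2 mice of the high array set, and at 12.00 to 12.89 in the other 5 UBB+1 tg mice and 12.31 to 12.68 in the other 4 wild-type mice. Its log2 fold change was -0.13 (SE 0.87) over all mice, -0.38 (SE 0.20) under the array-set block and 0.04 within the middle set.

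Over all member probe sets, the largest differences of either sign were those of lysosomal proteases, Ctsb at 0.69 and Ctsz at -0.75. Of 10 protease genes, 5 were above and 5 below wild type on MOE430A, with a median log2 fold change of -0.02 over the brightest probe sets. Ctsb, an abundant cysteine protease that the study also lists as regulated on these same samples, so that it is no independent evidence, was measured by 4 probe sets on MOE430A. On probe set 1417491_at it was at 9.27, 9.54 and 9.94 at the lowest, median and highest in UBB+1 tg, and at 8.04, 8.57, 9.10, 9.34 and 9.42 in wild type. All 6 UBB+1 tg mice exceeded the wild-type mean, but the upper wild-type values reached into their range. The log2 fold change on this probe set was 0.69 (SE 0.23, adjusted p = 0.984 in limma), equal to 1.61-fold, and 0.51 (SE 0.15) under the array-set block. Within the middle array set it was 0.25, against 0.97 in the low and 0.58 in the high set. The low and high values rest on 1 UBB+1 tg mouse each.

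The brightest Ctsb probe set, 1417490_at, did not share that difference. It was at 10.42, 10.71 and 10.96 in UBB+1 tg and at 10.32, 10.56, 10.58, 10.73 and 10.78 in wild type, a log2 fold change of 0.10 (SE 0.11). The others were at 0.14 (SE 0.16) and -0.14 (SE 0.31) on MOE430A and at -0.01 (SE 0.10) on MOE430B. Which transcript forms of Ctsb these probe sets detect was not tested.

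Ctsz, a carboxypeptidase that microglia also express, lay below wild type on each of its 3 probe sets. On 1417870_x_at it was at 5.49, 6.34 and 6.88 in UBB+1 tg, and at 6.00, 6.75, 6.83, 7.25 and 7.42 in wild type. Of 6 UBB+1 tg mice, 1 exceeded the wild-type mean, and the lowest value of each genotype came from the high array set. Ctsz differed by -0.58 (SE 0.28) on the log2 scale on this probe set and -0.75 (SE 0.42) and -0.38 (SE 0.22) on the others, with an adjusted p of 0.984 in limma on the first of them. Under the array-set block it was -0.54 (SE 0.14), -0.68 (SE 0.24) and -0.20 (SE 0.11). Of 10 microglial markers, 7 were also below wild type, with C1qa at -0.43, C1qc at -0.30 and Aif1 at -0.30, and 3 were above, among them the brightest, Csf1r, at 0.22. Their summed level, in which bright genes weigh most, averaged 11.28 in UBB+1 tg and 11.26 in wild type. The part of these markers in the Ctsz values was not tested.

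Ctsd, the main aspartic protease of the lysosome, varied within both genotypes. It was at 8.56, 9.68 and 9.89 in UBB+1 tg and at 9.08, 9.34, 9.61, 9.92 and 10.12 in wild type, and the lowest mouse of each genotype was the one of the high array set. Its log2 fold change was -0.09 (SE 0.25) over all mice, -0.03 (SE 0.11) under the array-set block and 0.10 without the lowest UBB+1 tg mouse.

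Ctsl and Ctss, cysteine proteases with wide substrate range, were above wild type by 0.59 (SE 0.52) and 0.52 (SE 0.33) on the log2 scale. Ctsl was at 9.08, 9.98 and 10.97 in UBB+1 tg and at 8.58, 8.72, 8.91, 10.30 and 10.74 in wild type, and Ctsl values above 10 were found only in mice of the middle array set, 3 UBB+1 tg and 2 wild-type. Ctss, which in brain belongs to microglia, was at 9.91, 10.09 and 10.83 in UBB+1 tg and at 8.89, 9.19, 9.52, 10.56 and 10.61 in wild type, and all 6 UBB+1 tg mice exceeded the wild-type mean. Under the array-set block, Ctsl was at 0.20 (SE 0.31) and Ctss at 0.27 (SE 0.22), and within the middle set at -0.05 and -0.18. Among the remaining proteases, Ctsa, which shields Neu1 and Glb1 from degradation, was at -0.30 (SE 0.26) with no UBB+1 tg mouse above the wild-type mean. Ctsf was at -0.27 (SE 0.39), Lgmn, which cleaves after asparagine, at -0.07 (SE 0.37), Ctsh at 0.03 (SE 0.18) and Tpp1, the tripeptidyl peptidase lost in CLN2 disease, at 0.12 (SE 0.14) on its brightest probe set and -0.26 (SE 0.19) on the other.

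**Figure D2:**
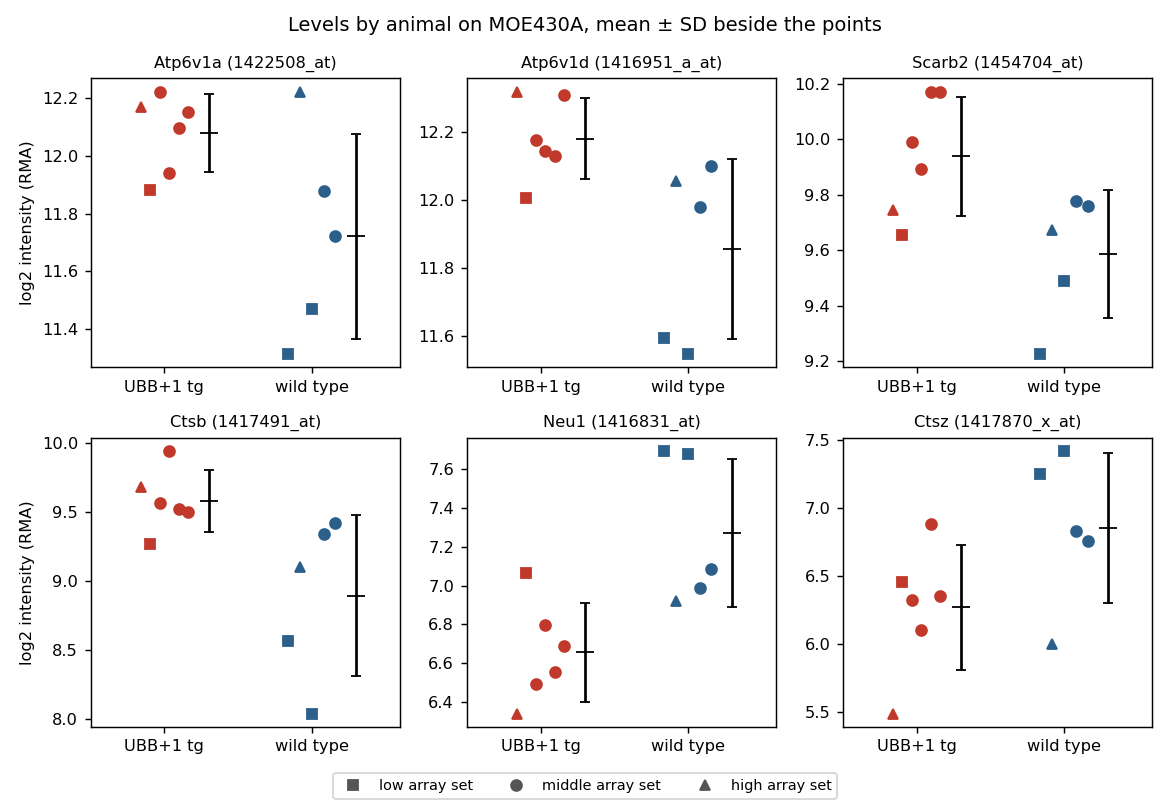
Log2 intensity of single mice for 6 probe sets on MOE430A, UBB+1 tg left and wild type right, with the array set as the symbol and mean ± SD as bars (n = 6 and 5). The genotypes overlap in every panel, and the low array set (squares) holds the lowest 2 wild-type values of Atp6v1a, Atp6v1d and Ctsb and the highest 2 of Neu1 and Ctsz.

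Glycosidases, which cut sugars from glycoproteins, glycolipids and glycogen, were mostly below wild type on the brightest probe set of each gene, less so over all their probe sets. Of 6 genes, 1 was above and 5 below, with a median log2 fold change of -0.32, and under the array-set block 2 were above and 4 below with a median of -0.18. Over all 11 glycosidase probe sets of MOE430A, 3 were above and 8 below with a median of -0.10, and under the block 5 were above and 6 below with a median of -0.01. Neu1, the sialidase that acts with Ctsa, had the lowest unadjusted p of the members. On probe set 1416831_at it was at 6.34, 6.62 and 7.07 at the lowest, median and highest in UBB+1 tg, and at 6.92, 6.99, 7.09, 7.68 and 7.69 in wild type. A single UBB+1 tg mouse, of the low array set, reached into the wild-type range. The log2 fold change of Neu1 was -0.62 (SE 0.18, unadjusted p = 0.00526 and adjusted p = 0.984 in limma), or 0.652-fold, with none of 6 UBB+1 tg mice above the wild-type mean.

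The Neu1 difference had the same sign within each array set, but not on each of its other probe sets. It was -0.41 in the middle set, -0.62 in the low set and -0.58 in the high set, and -0.50 (SE 0.08, adjusted p = 0.406 in limma) under the array-set block. The low and high sets each held 1 UBB+1 tg mouse. Probe set 1448481_at gave -0.17 (SE 0.24), and 1447942_x_at gave 0.19 (SE 0.21), with 5 of 6 UBB+1 tg mice above the wild-type mean. Neu1 1416831_at also fell with the 3'-5' difference, by 0.25 for each log2 unit (adjusted p = 0.0123 in limma).

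Gla, which releases galactose from globotriaosylceramide, was at 4.95, 5.46 and 5.67 in UBB+1 tg and at 5.21, 5.29, 5.70, 6.00 and 6.51 in wild type. Its log2 fold change was -0.37 (SE 0.23) over all mice, -1.30 within the low array set, -0.02 within the middle set and 0.27 within the high set. The values of the low and high sets rest on 1 UBB+1 tg mouse each. The second Gla probe set of MOE430A, 1449006_at, was dim and at 0.08 (SE 0.13), with 0.31 within the low set. On MOE430B the dim Gla probe set 1459738_x_at was at -0.04 (SE 0.06). Hexa, the α chain of hexosaminidase, was at -0.27 (SE 0.21), Gusb, β-glucuronidase, was dim and at -0.40 (SE 0.32), and Glb1, β-galactosidase, was at -0.02 (SE 0.20). Gaa, which breaks down glycogen, was at 0.01 (SE 0.31) over all mice and at 0.24 (SE 0.18) under the array-set block.

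The 3 genes of lipid hydrolases and activators lay within 0.27 log2 units of wild type. Ppt1, which strips palmitate from proteins and is mutated in infantile lipofuscinosis, was at 8.41, 8.74 and 9.07 in UBB+1 tg and at 8.19, 8.28, 8.52, 8.55 and 8.72 in wild type. Of the UBB+1 tg mice, 5 of 6 were above the wild-type mean, and the log2 fold change of Ppt1 was 0.27 (SE 0.13), or 0.22 (SE 0.12) under the array-set block. The second probe set of Ppt1 was at 0.04 (SE 0.19). Asah1, acid ceramidase, was at 8.34, 8.88 and 9.39 in UBB+1 tg and at 8.16, 8.41, 8.83, 8.92 and 9.53 in wild type, with a log2 fold change of 0.14 (SE 0.25) that turned to -0.08 with the block. Psap, the precursor of the saposins that present lipids to their hydrolases, was at -0.08 (SE 0.38) and -0.07 (SE 0.30) on its probe sets.

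Among membrane and other proteins, Scarb2 had the largest difference over all mice, though not under the array-set block. Scarb2 carries β-glucocerebrosidase to the lysosome, and on probe set 1454704_at it was at 9.65, 9.94 and 10.17 at the lowest, median and highest in UBB+1 tg, and at 9.23, 9.49, 9.67, 9.76 and 9.78 in wild type. The lower UBB+1 tg values lay inside the wild-type range and the others above it, and all 6 were above the wild-type mean. Scarb2 thus had a log2 fold change of 0.35 (SE 0.13, adjusted p = 0.984 in limma) and 0.25 (SE 0.09) under the array-set block, while its second probe set was at 0.09 (SE 0.26).

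Cln3, mutated in juvenile lipofuscinosis, was at 5.93, 6.34 and 6.71 in UBB+1 tg and at 6.02, 6.02, 6.17, 6.21 and 6.21 in wild type, with the wild-type mice packed within the UBB+1 tg range and a log2 fold change of 0.21 (SE 0.12). Lamp1, an abundant glycoprotein of the lysosomal membrane, was at 11.15, 11.45 and 11.71 in UBB+1 tg and at 11.12, 11.21, 11.32, 11.57 and 11.74 in wild type. These Lamp1 ranges nearly coincided, and the log2 fold change was 0.03 (SE 0.14). Lamp2, its relative that also serves in chaperone-mediated autophagy, was at -0.02 (SE 0.17) on its brightest probe set and at 0.17, 0.06 and 0.07 on the others. Grn, progranulin, was at 0.03 (SE 0.16) on its brightest probe set and at -0.04 and -0.23 on the others. The cholesterol exporters Npc1 and Npc2 were at -0.00 (SE 0.13) and -0.23 (SE 0.17). No UBB+1 tg mouse exceeded the wild-type mean of Npc2, on either of its MOE430A probe sets, and under the array-set block these were at -0.31 (SE 0.14) and -0.30 (SE 0.08), with adjusted p = 0.690 and 0.658 in limma. Within the low, middle and high sets, Npc2 1448513_a_at was at -0.30, -0.57 and 0.36, and 1416901_at at -0.29, -0.40 and -0.03. The low and high values of Npc2 rest on 1 UBB+1 tg mouse each. Its MOE430B probe sets were at -0.06 (SE 0.12) and -0.08 (SE 0.06) over all mice. Mcoln1, the calcium channel of the lysosomal membrane, was at -0.08 (SE 0.28) on its brightest probe set, and at -0.27 (SE 0.31) on 1416672_s_at, where the block gave -0.37.

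Under the array-set block, 4 member probe sets of MOE430A were higher in UBB+1 tg and 5 lower at an unadjusted p of 0.05 from limma, beside 3.77% and 3.42% of all probe sets. The higher ones were those of Atp6v1a, Atp6v1d, Ctsb and Scarb2 described above, and the lower ones were Neu1, both Npc2 probe sets and Ctsz 1417870_x_at and 1417868_a_at. No probe set of the array passed a false discovery rate of 10% in this fit, the lowest adjusted p being 0.243.

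**Figure D3:**
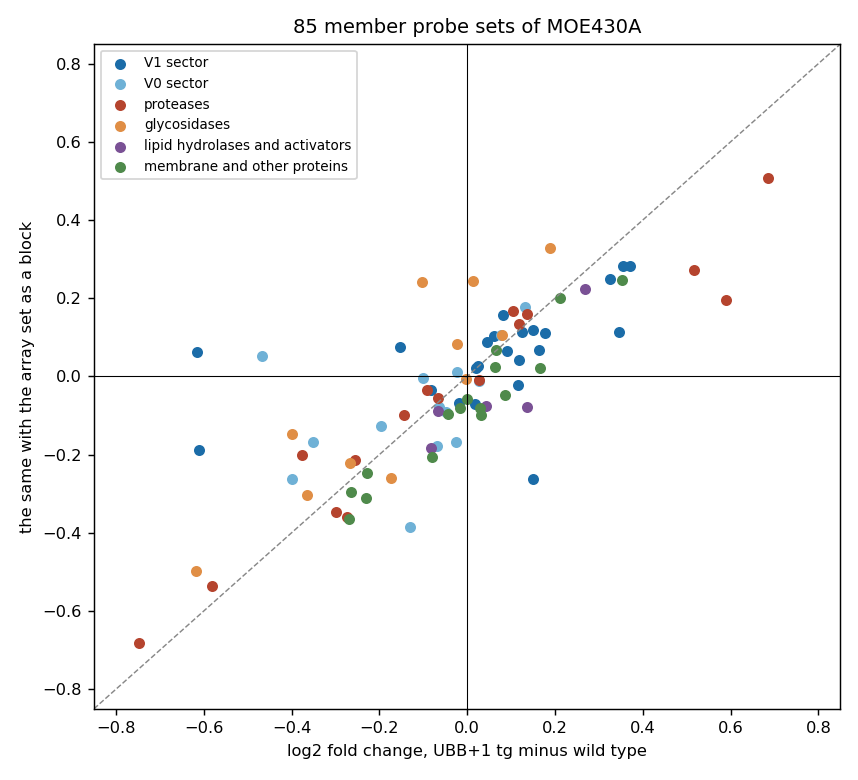
Log2 difference between UBB+1 tg and wild type for the 85 member probe sets of MOE430A over all mice (horizontal axis) against the same under the array-set block (vertical axis). The dashed line marks equality; Ctsb at 0.69 and Ctsz at -0.75 kept most of their size, while Atp6v1f at -0.62 and Atp6v0a1 at -0.47 moved to near 0.

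The array sets were cut from these same arrays, so that a range between sets was fixed by the choice, and its size is given only as a description. The range of the 3 set means had a median of 0.44 log2 units over pump probe sets and 0.69 over those of the list on MOE430A, against 0.30 over all probe sets. It was above 1 log2 unit in 10 of 37 pump probe sets (27.03%) and 14 of 48 listed ones (29.2%), against 10.3% of all, and among probe sets above the array's median level in 38.5% and 33.3%, against 18.4%. The absolute genotype difference had a median of 0.12 over pump probe sets and 0.14 over listed ones, against 0.09 over all probe sets. A Psap probe set and an Atp6v0d1 probe set were on MOE430A and MOE430B alike, and over the 11 mice on both, the value on MOE430A minus that on MOE430B had an SD of 0.10 for Psap and 0.13 for Atp6v0d1, against an SD between mice of 0.65 and 0.53 on MOE430A. Whether this spread lies in the mice or in their amplified RNA cannot be told apart.

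The levels of some members were associated with the 3'-5' difference. With genotype in the limma model, 16 of 85 member probe sets of MOE430A were associated with it at a false discovery rate of 10%, 6 of 37 for the pump and 10 of 48 for the list, beside 8.27% of all probe sets. The count was 10 without the UBB+1 tg mouse of the high set, 9 without 1 wild-type mouse of the low set (wt287) and 11 to 17 without any other mouse. Over all probe sets, 3.91% rose and 4.35% fell with it. Of the members, 26 of 37 pump and 36 of 48 listed probe sets lay above the array's median level. The share associated among all probe sets above that level was not computed. Of 23 V1 probe sets, 5 rose with the 3'-5' difference: Atp6v1a by 0.20 for each log2 unit (adjusted p = 0.0262), both _a_at probe sets of Atp6v1d by 0.15 and 0.13, and 1 probe set each of Atp6v1c1 and Atp6v1g1 by 0.17 and 0.12. Slopes of other V1 probe sets that did not pass ran the other way, such as -0.51 for Atp6v1b2 1419883_s_at and -0.45 for Atp6v1f. Of 16 protease probe sets, 6 fell with it, namely Ctsd by 0.35 (adjusted p = 0.0122), Ctsb 1448732_at by 0.45, the 3 of Ctsz by 0.29 to 0.55 and Lgmn by 0.44, while Ctsb 1417491_at, which did not pass, had a slope of 0.26. The others were Hexa and Neu1 1416831_at, Psap 1421813_a_at and Atp6v0b 1416769_s_at, which fell, and Ppt1 1422467_at, which rose. Of the 16 membrane probe sets, none passed.

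**Figure D4:**
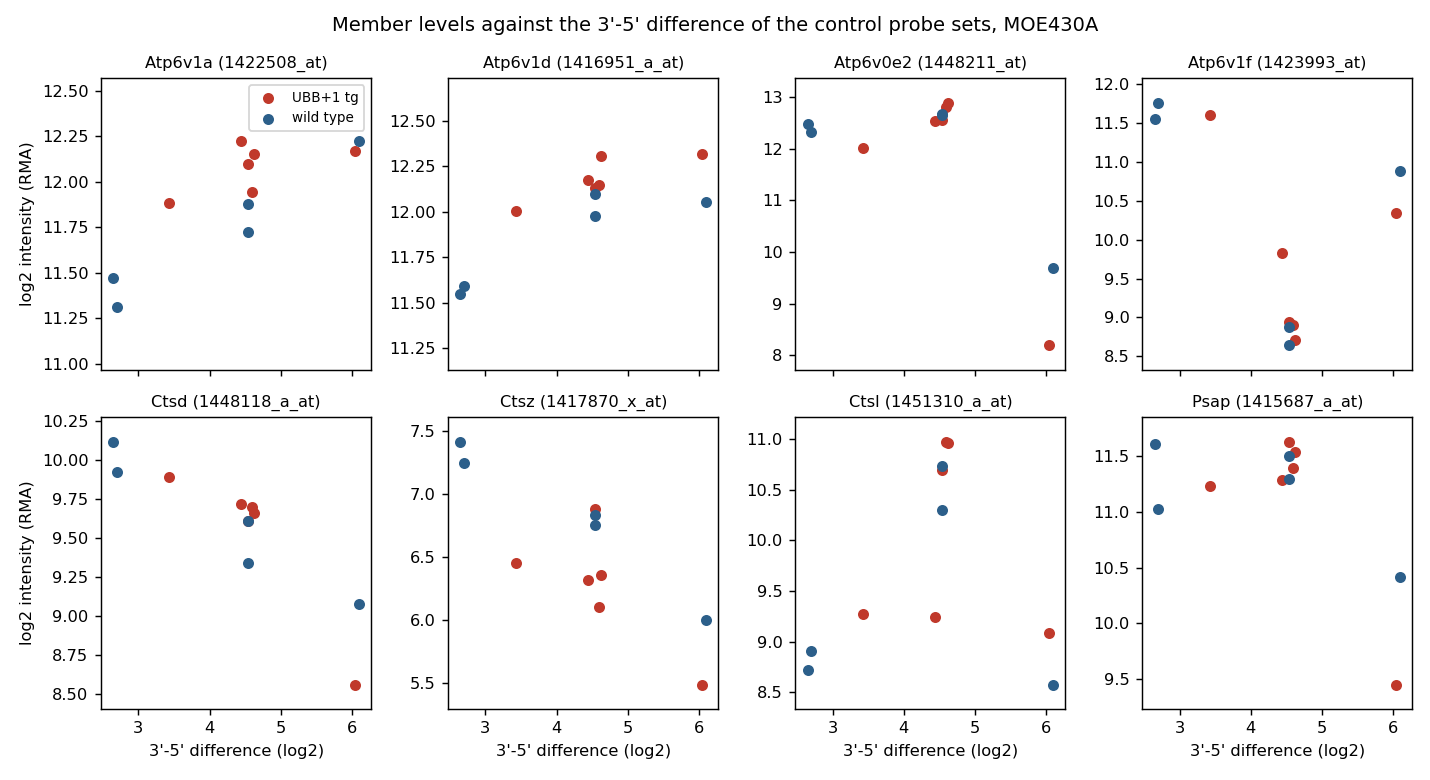
Log2 intensity of 8 member probe sets on MOE430A (vertical axes, each with its own range) against the 3'-5' difference of the Gapdh and β-actin control probe sets (log2), 1 point per mouse. Atp6v1a and Atp6v1d rose and Ctsd and Ctsz fell with the difference, while Atp6v1f and Ctsl set the middle arrays apart from both ends and Atp6v0e2 and Psap set the highest pair of arrays apart.

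Further genes of the lysosome that are not members lay on both sides of wild type. From a list of 64, with assembly factors of the pump, further hydrolases, membrane proteins and regulators, 48 were measured on MOE430A, 25 above and 23 below wild type with a median log2 fold change of 0.01. At an unadjusted p of 0.05 from limma, Ctsc, the protease that activates other proteases of immune cells, was higher by 0.67 (SE 0.24). Naglu, a heparan sulphate glycosidase, was at -0.32 (SE 0.13) and Lamp5, a relative of Lamp1 in neurons, at -0.36 (SE 0.15). These were 3 of 48 genes, beside 3.89% of all genes by the brightest probe set. The count was 1 without a single UBB+1 tg mouse of the high set (tg270) or 1 wild-type mouse of the low set (wt290). On MOE430B 22 were measured, 11 on either side, and Aga, which cleaves sugar from asparagine, was at 0.35 (SE 0.16), the only one at an unadjusted p of 0.05, beside 3.33% of all genes. This count was 0 to 3 without single mice.

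MOE430B, the array with fewer well-known transcripts, held 5 pump genes and 11 listed genes, mostly through additional probe sets. Their log2 fold changes had a median of -0.06 for the pump, -0.01 for the list and -0.01 over all genes. At an unadjusted p of 0.05 from limma, 1 of 21 member probe sets was higher in UBB+1 tg and 0 were lower, beside 1.52% and 1.53% of all probe sets. This was the dim Atp6v1b2 probe set 1446465_at, at 3.75, 3.95 and 4.04 at the lowest, median and highest in UBB+1 tg and at 3.72, 3.79 and 3.81 in wild type, with a log2 fold change of 0.14 (SE 0.06, adjusted p = 1.00). Atp6v0d2, the d isoform of kidney and osteoclasts and the only member measured on MOE430B alone, was at 4.39, 4.64 and 4.96 in UBB+1 tg and at 4.66, 4.73 and 4.89 in wild type, with a log2 fold change of -0.06 (SE 0.09). Mcoln1 was at -0.16 (SE 0.12), with no UBB+1 tg mouse above the wild-type mean.

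Atp6v0d1 on MOE430B was at 10.60, 12.15 and 12.45 in UBB+1 tg and at 11.46, 12.27 and 12.44 in wild type, with a log2 fold change of -0.19 (SE 0.28). The lowest mouse of each genotype was again the one of the high array set. Atp6v1e1 was at -0.14 (SE 0.21), Ctsl at 0.15 (SE 0.15), Ctsa at -0.08 (SE 0.08) and the brightest Ppt1 probe set at 0.13 (SE 0.10). No member of MOE430B was associated with the 3'-5' difference at a false discovery rate of 10% in limma, beside 1.61% of all probe sets.

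Where a gene had several probe sets over both arrays, their differences often disagreed. Of 31 such member genes, 18 had all their differences on the same side of 0 and 13 on both sides. The 18 include Atp6v0d1, whose only probe set was on both arrays, and Psap, with a probe set counted on both. Their agreement was to that extent fixed in advance. Atp6v1b2 with 4 probe sets, Atp6v1d, Atp6v1c1, Atp6v1h and Ctsz with 3 each, and Npc2 with 4 kept a single side, while Ctsb with 5, Lamp2 and Atp6v0a1 with 4, and Neu1 and Atp6v1g1 with 3 did not.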

How the data were processed

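Expression in laser-cut CA3 was measured on Affymetrix MOE430A and MOE430B arrays, from 5 ng of total RNA amplified in 2 rounds. The authors normalized the scans with RMA (version not given in the sources used here) for each kind of array apart. The deposited intensity values of MOE430A are linear whole numbers, and log2 was taken of them here; the deposited values of MOE430B are already on the log2 scale. Arrays have no read depth, and the number of animals limits the precision. RMA makes levels comparable between arrays of a kind but not between probe sets.

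Animals and genotypes came from the sample labels. Of 22690 and 22575 probe sets, 64 controls on each array and 1 probe set of MOE430A that detects the transgene's promoter region were left out, and 22625 and 22511 were tested with limma 3.58.1 (lmFit, then eBayes; R 4.3.3), UBB+1 tg minus wild type, with Benjamini-Hochberg adjustment within each array at a false discovery rate of 10%. The authors reported regulated genes at this rate with ChipInspector, which needs single probes and was not used here. They state that RMA and limma at the same false discovery rate in CARMAweb bore out these results. In the limma fit used here, by contrast, no probe set of either array passed. The reason for this difference was not tested. A gene was represented by its brightest probe set over all arrays, and a probe set was dim if its mean was under the 25th percentile. The 3 array sets were cut from a complete-linkage tree of the arrays, with 1 minus Pearson r as the distance. The genotype fit and the fit of the 3'-5' difference were tested on simulated data, and the other steps were not.

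The members and lists were chosen with earlier results of these data known. Values by animal are given for up to 2 probe sets with the smallest unadjusted p in each role and array, for Ctsb, Ctsd, Lamp1, Atp6v0a1 and Atp6v1a as well-known members, and, chosen after their values were seen, for Atp6v0e2, Atp6v1f, Ctsl and Ctss. Summed marker levels are log2 of the sum of linear intensities over the measured genes of a list. Markers of astrocytes, endothelium, choroid plexus, interneurons, granule cells, CA1 and neurons were also looked up, and none passed an unadjusted p of 0.05. Promoters matched the members by symbol, and the stretches shown span the matches and 20 bases on either side. Alternatives were a false discovery rate of 5%, no dim probe sets, median centring, another quantile normalization, values floored at the 25th percentile, eBayes with trend, array weights, the 3'-5' difference, the array set, averaged probe sets, no cross-hybridising probe sets, 1 adjustment over both arrays, only animals on both arrays, and leaving out each animal. The middle array set alone and the arrays without the high set were added after the data were seen.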

Additional observations from a re-analysis of the deposited data

Results flagged for a closer look

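Within a genotype, 1 mouse stood apart from the rest in 4 of 54 groups examined, over 27 probe sets with values by animal, and chance alone sets a mouse apart in about 1 in 20 groups. Ctsd on MOE430A was at 8.56 in tg270, against 9.61 to 9.89 in the other UBB+1 tg mice. Atp6v0d1 on MOE430B was at 10.60 in tg270, against 12.10 to 12.45 in the other UBB+1 tg mice, and at 11.46 in wt289, against 12.18 to 12.44 in the other wild-type mice. Both mice form the high array set. The dim Atp6v1b2 probe set 1446465_at on MOE430B was at 3.72 in wt290, against 3.78 to 3.81 in the other wild-type mice.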

How the results depend on the processing

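No paired analysis was possible because no animal number occurs in both genotypes and the labels name no litter. Over 27 probe sets and their alternatives, 701 values were computed: 683 kept their direction without passing the threshold, 18 changed sign and 0 passed. Members called stayed at 0 on both arrays throughout. Under the array-set block, Asah1 was at -0.077, Lamp1 at -0.080 and Atp6v0a1 at 0.051, and in the middle set alone they were at -0.134, -0.116 and 0.034, with Ctsd at 0.194 and Mcoln1 on MOE430B at 0.064. Adjusted for the 3'-5' difference, Ctsd was at 0.087. Atp6v1e1 on MOE430B was at 0.026 with only the animals on both arrays. The median over pump genes of MOE430A was -0.037 with probe sets averaged per gene and 0.090 in the middle set alone. The cause was not tested. The floor left no difference for the dim Atp6v1b2 1446465_at and Gla 1459738_x_at on MOE430B, which are not counted among these values. Leaving out each animal gave 0.72 as the lowest adjusted p, -0.02 to 0.08 (pump) and -0.05 to 0.04 (list) for the medians on MOE430A, 9 to 17 and 0 to 1 for members associated with the 3'-5' difference on MOE430A and MOE430B, and 1 to 4 and 0 to 3 for other lysosomal genes. It changed the sign of Ctsd (-0.227 to 0.1004), Lamp1 (-0.038 to 0.117), Asah1 (-0.016 to 0.324), and on MOE430B of Atp6v0d1 (-0.328 to 0.087) and Atp6v1e1 (-0.217 to 0.026). The precision is that of 6 against 5 mice on MOE430A, and summarised RMA values do not resolve single probes.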
